A study of Mus musculus with 16 samples.

Results

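The miR-29 family was examined in mouse serum through its 3 mature members, mmu-miR-29a-3p, mmu-miR-29b-3p and mmu-miR-29c-3p, chosen by name from the 1881 mouse miRNAs on the array. Serum was taken from the heart blood of male mice aged 4, 8, 36 and 58 weeks, with 4 mice per age, to ask which circulating miRNAs differ with age. Serum RNA of each mouse, labelled with the dye Cy3, was read on its own single-colour Agilent array, 16 arrays in all. The labels name no treatment, and age is the only difference between groups that they state. Labelling started from an equal mass of RNA per mouse, so values are relative to the RNA and not to a volume of serum. The arrays lay on 2 slides of 8: slide 1 held the 4- and 8-week mice, and slide 2 the 36- and 58-week mice. Only 8 against 4 weeks and 58 against 36 weeks are therefore contrasts within a slide, and in every other pair age and slide cannot be told apart.

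A miRNA pairs with messenger RNAs chiefly through its seed, bases 2 to 8 from the 5′ end. The miR-29 family is known for binding transcripts of collagens, elastin and other matrix proteins, and of the DNA methyltransferases Dnmt3a and Dnmt3b. It is low in fibrotic heart, liver and kidney, and in mice its level has been tied to ageing of muscle and other tissues. Serum holds miRNAs released from blood cells, vessels and organs, so a serum level does not name its source, and fewer releasing cells and less RNA from each cannot be told apart.

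The mature sequences are shown because the members differ at so few bases that their probes need to tell them apart. All 3 were matched by name in RefSeq (GRCm38.p6). Capitals mark the seed.
miR-29a-3p: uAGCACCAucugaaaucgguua
miR-29b-3p: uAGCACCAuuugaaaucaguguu
miR-29c-3p: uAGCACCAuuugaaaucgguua
Of 1679 mature names in the RefSeq table, these 3 carry the seed and no others do. Counted from the 5′ end with the base of miR-29a-3p first, miR-29c-3p differs from it by C10U alone. The same comparison gives miR-29b-3p the 4 differences C10U, G18A, U21G and A22U, plus 1 further base at its 3′ end. Mir29a and Mir29b-1 lie 275 bases apart on the minus strand of chromosome 6 (chr6:31062660-31063093, GRCm38.p6). Mir29b-2 and Mir29c lie 426 bases apart on the plus strand of chromosome 1 (chr1:195037040-195037634). The mature miR-29b-3p is the same from both of its genes, so the array cannot tell which gene a signal came from.

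The members were measured with unequal certainty. The Feature Extraction software called miR-29a-3p detected on 16 of 16 arrays, as it did for 24 of the 1881 miRNAs. It called miR-29c-3p detected on 14 arrays and miR-29b-3p on 11. The 5 arrays without a call for miR-29b-3p were 4-week replicates 1 and 4, 8-week replicate 3 and 36-week replicates 3 and 4. Those without a call for miR-29c-3p were 4-week replicate 1 and 36-week replicate 4. The processed signal of miR-29a-3p was 4.32 to 250.5 times the SD of the negative-control spots of its array, that of miR-29c-3p -0.50 to 39.8 times, and that of miR-29b-3p -0.25 to 7.42 times. No spot was saturated.

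Array quality bears on the dim members. Replicate 4 of the 36-week mice had a negative-control SD of 59.3, and replicates 1 and 4 of the 4-week mice had 19.1 and 7.45, against 1.82 to 4.45 on the other 13 arrays. The software set a mark for evaluation on those 3 arrays. Values below are log2 of the signal after each array was scaled to an equal 75th percentile over the 24 miRNAs detected everywhere. Scaled signals under 3.79 were set to that floor, 1.92 on the log2 scale. Unscaled, that percentile was 8.96 ± 0.22 (log2) at 58 weeks and 9.99 ± 0.33 at 4 weeks (SD, n = 4 each), so scaling raises 58-week values relative to 4-week ones.

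mmu-miR-29a-3p, detected in every mouse, had higher means at 36 and 58 weeks than at 4 and 8 weeks, without passing the test given below. Its log2 scaled signal was 7.82, 8.27, 7.83 and 7.55 in the 4-week mice and 7.72, 7.76, 7.37 and 8.48 in the 8-week mice. It was 8.73, 9.14, 9.31 and 7.99 in the 36-week mice and 8.71, 8.29, 8.63 and 8.38 in the 58-week mice. After scaling, the 58-week values all lay above the 4-week ones, the closest pair being 8.29 and 8.27. Before it that order did not hold, with processed signals of 186.9 on 58-week replicate 2 and 330.5 on 4-week replicate 2. The scaled 36-week values overlapped those of both younger ages through replicate 4. The mean was 7.87 ± 0.30 at 4 weeks and 7.83 ± 0.47 at 8 weeks, then 8.79 ± 0.59 at 36 weeks and 8.50 ± 0.20 at 58 weeks (SD, n = 4 each).

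mmu-miR-29b-3p was near the floor in young mice and detected in every 58-week mouse. Its log2 scaled signal was 1.92, 3.36, 2.29 and 2.03 at 4 weeks and 2.35, 3.11, 1.92 and 3.24 at 8 weeks. It was 4.62, 4.55, 1.92 and 1.92 at 36 weeks and 4.65, 3.83, 4.27 and 4.42 at 58 weeks. The 58-week values lay above all 8 values of the younger mice, and the 36-week mice divided into 2 at the 58-week level and 2 at the floor. The 2 at the floor were replicate 4, the array with the most background, and replicate 3, whose negative-control SD was 4.39. From 4 weeks (2.40 ± 0.66) and 8 weeks (2.65 ± 0.63) through 36 weeks (3.25 ± 1.54) the mean was highest at 58 weeks (4.29 ± 0.34).

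mmu-miR-29c-3p had means that lay within 0.66 of each other on the log2 scale, and its SD at 36 weeks was larger than that. Its log2 scaled signal was 4.67, 5.65, 5.0 and 4.49 at 4 weeks and 4.70, 5.0, 4.37 and 5.83 at 8 weeks. It was 6.19, 6.92, 6.40 and 1.92 at 36 weeks and 5.95, 4.89, 6.13 and 5.46 at 58 weeks. Replicates 1 to 3 of the 36-week mice held the highest values of the series, replicate 4 lay at the floor with a negative processed signal, and the 58-week values overlapped those at 4 weeks. Means of 4.95 ± 0.51 at 4 weeks and 4.97 ± 0.62 at 8 weeks stood beside 5.36 ± 2.31 at 36 weeks and 5.61 ± 0.56 at 58 weeks.

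**Figure D1:**
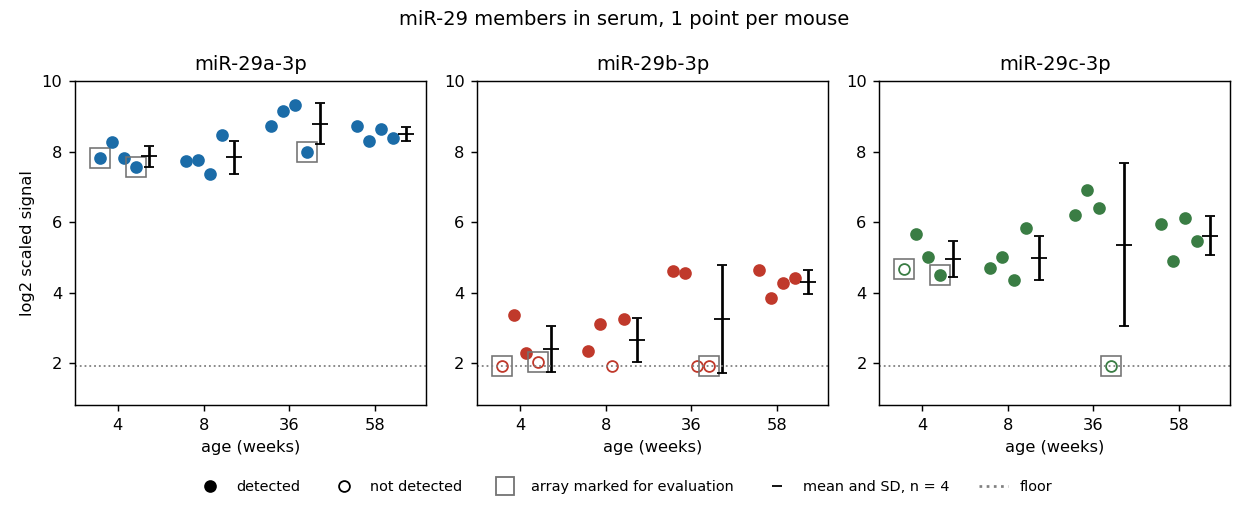
Log2 scaled signal of each miR-29 member (vertical axis) by age in weeks (horizontal axis), 1 point per mouse, with the mean and SD of 4 mice beside each age. Open points were not detected, and grey squares mark the 3 arrays that the software set aside for evaluation. The dotted line is the floor at 1.92. After scaling, miR-29b-3p in the 58-week mice sat between 3.83 and 4.65, above all 4- and 8-week mice.

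Both groups free of overlap between 58 and 4 weeks, those of miR-29a-3p and miR-29b-3p, belong to a wider set: 3.86% of the 285 tested miRNAs had all 58-week arrays above all 4-week arrays, and 2.81% had them all below. Between 58 and 8 weeks the share above was 7.72%, and miR-29b-3p was in it. Between 58 and 8 weeks 3.51% lay all below, with no member among them. Between 36 and 8 weeks 2.46% lay all above and 1.4% all below, within slide 2 (58 against 36 weeks) 3.86% and 0.351%, and within slide 1 (8 against 4 weeks) 0% and 3.86%. No member was in any of these sets. The tests took in a miRNA when 3 or more of the 4 mice of some age had a detection call, and all 3 members passed that filter, miR-29b-3p through the 8- and 58-week mice.

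miR-29b-3p rests on 1 of its 2 probes. Each probe is spotted 15 times per array. The scaled signal of probe A_54_P1012 was 10.8, 19.7, 10.7 and 10.8 at 4 weeks and 10.5, 17.0, 10.6 and 18.3 at 8 weeks. It was 48.0, 47.4, 10.1 and 2.29 at 36 weeks and 51.0, 33.3, 37.8 and 44.4 at 58 weeks. The lowest 58-week value was thus above the highest value of the 8 younger mice, 19.7. Probe A_54_P1011 was at or under the floor on all 16 arrays, with processed signals of -31.9 to 0.92, so it gave no age pattern of its own. The tests used the mean of both probes. On 4 arrays that mean was at the floor, whereas A_54_P1012 by itself was below the floor on 36-week replicate 4 only.

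For the other members both probes gave like differences. For miR-29a-3p the log2 difference of 58 minus 4 weeks was 0.50 and 0.67 by its 2 probes, and for miR-29c-3p it was 0.67 and 0.64. On the same scale it was 1.71 for A_54_P1012 of miR-29b-3p. The median coefficient of variation among the spots of a probe was 4.25% and 6.41% for miR-29a-3p, 8.45% and 8.95% for miR-29c-3p, and 15.8% for A_54_P1012.

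**Figure D2:**
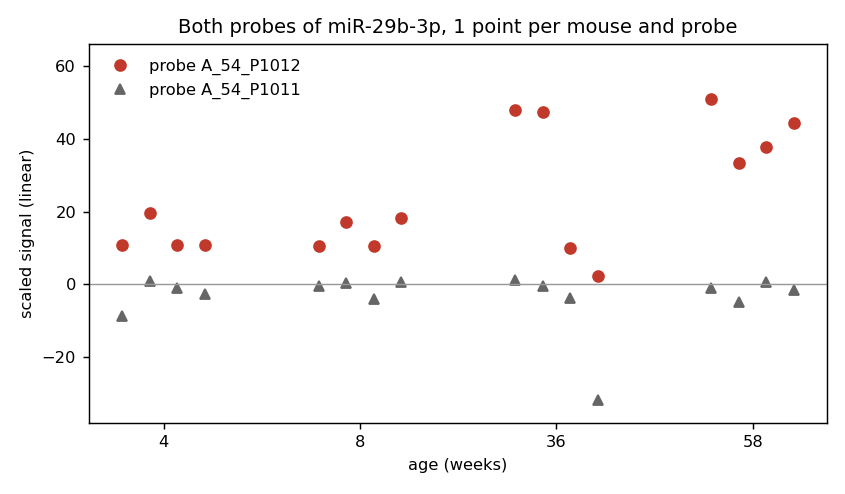
Scaled signal on a linear scale (vertical axis) of the 2 probes of miR-29b-3p by age in weeks (horizontal axis), 1 point per mouse and probe. After scaling, probe A_54_P1012 (circles) lay between 33.3 and 51.0 in the 58-week mice and between 10.5 and 19.7 in the 4- and 8-week mice. Probe A_54_P1011 (triangles) stayed near or below 0.

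Across the whole age range no member passed the test, with estimates above 0 for all 3. In the limma fit the slope of miR-29b-3p for each doubling of age was 0.43 ± 0.14 (SE, log2 units, unadjusted p = 0.00849, adjusted p = 0.346). It was 0.23 ± 0.091 for miR-29a-3p (unadjusted p = 0.0207, adjusted p = 0.493) and 0.17 ± 0.18 for miR-29c-3p (adjusted p = 0.534). Thus 0 of 3 members passed, against 0.351% of the 285 tested miRNAs. At an unadjusted p under 0.05, 2 of 3 did so, against 8.77%. The median slope over all tested miRNAs was 0.12, and 57.9% of slopes were above 0. In the F test for any difference among ages, adjusted p was 0.477 for miR-29a-3p and for miR-29b-3p, and 0.865 for miR-29c-3p (limma). Again 0 of 3 passed, against 0.351%, and 1 of 3 at an unadjusted p under 0.05, against 4.56%.

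With slide as a block, a fit that rests on the age steps within each slide, the slope of miR-29a-3p was -0.16 (limma unadjusted p = 0.628). That of miR-29b-3p was 0.66 (limma unadjusted p = 0.242), and the median over all tested miRNAs was -0.58. Neither slope was distinct from 0 there, so whether the slopes depend on the slide cannot be told. Both members passed when the brightest probe alone was used (slopes 0.22 and 0.33, limma adjusted p = 0.0399 and 0.0347), and when the 3 marked arrays were left out (0.22 and 0.44, adjusted p = 0.0438 and 0.0364). By the brightest probe 8 of 285 miRNAs passed. Leaving out the 3 arrays raised the number of passing miRNAs to 146 of 272, so that most tested miRNAs shared the members' calls there.

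Between 58 and 4 weeks, the widest span, the estimate of miR-29b-3p was the largest in the family. The log2 difference was 1.89 ± 0.65 (SE) for miR-29b-3p (95% confidence interval 0.50 to 3.28, limma adjusted p = 0.531). For miR-29c-3p it was 0.66 ± 0.85 (-1.16 to 2.47, adjusted p = 0.998), and for miR-29a-3p 0.63 ± 0.41 (-0.24 to 1.50, adjusted p = 0.887). The number passing was 0 of 3 members, against 0.351% of tested miRNAs. At an unadjusted p under 0.05 it was 1 of 3, against 4.56%, and 49.5% of estimates were above 0 with a median of -0.0031. Without scaling between arrays the difference was 1.11 for miR-29b-3p, -0.37 for miR-29c-3p and -0.40 for miR-29a-3p, where the median over all tested miRNAs was -0.95. The 3 members therefore stayed above that median, but only miR-29b-3p kept a difference above 0. That of miR-29b-3p was 0.79 under quantile normalization, 0.58 with normexp and 1.35 by its brightest probe.

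Within slide 1, between 8 and 4 weeks, the members had estimates near 0 with wide intervals, while most estimates over all miRNAs were below 0. The log2 difference was 0.25 ± 0.65 (SE) for miR-29b-3p, 0.02 ± 0.85 for miR-29c-3p and -0.04 ± 0.41 for miR-29a-3p (limma adjusted p from 0.896 to 0.997). The median over all tested miRNAs was -0.72, 19.6% of them were above 0, and 0 members had an unadjusted p under 0.05, against 2.11%. The intervals reached from -1.79 to 1.83 for miR-29c-3p and from -0.91 to 0.83 for miR-29a-3p, so with 4 arrays per age differences inside those ranges were not detectable. The sign of both estimates changed with the array left out, with lowest values of -0.26 for miR-29c-3p and -0.25 for miR-29a-3p without 8-week replicate 4, and highest of 0.40 and 0.35 without 36-week replicate 4, which belongs to neither age. Without that array the median over all tested miRNAs was -0.30.

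Within slide 2, between 58 and 36 weeks, miR-29b-3p had an estimate of 1.04 ± 0.65 (SE) on the log2 scale (95% confidence interval -0.36 to 2.43, limma adjusted p = 0.717). Of the 36-week mice, 2 lay at the floor and 2 at 4.55 and 4.62, inside the 58-week range. The estimate was 1.54 without 36-week replicate 1, 1.51 without replicate 2, 0.61 without replicate 3 and 0.62 without replicate 4. With array weights it was 0.0044, with normexp 0.085 and under quantile normalization 0.25. The difference was 0.25 ± 0.85 for miR-29c-3p (adjusted p = 0.904) and -0.29 ± 0.41 for miR-29a-3p (adjusted p = 0.717). Without 36-week replicate 4 the miR-29c-3p difference was -0.68, so its sign turned on that array. The median over all tested miRNAs was -0.52, 31.9% were above 0, and 0 members had an unadjusted p under 0.05, against 1.75%.

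The step from 8 to 36 weeks, across slides, held the largest estimate of miR-29a-3p. The difference of 36 minus 8 weeks was 0.96 ± 0.41 (SE) on the log2 scale (95% confidence interval 0.09 to 1.83, limma unadjusted p = 0.0325, adjusted p = 0.151). It was 0.60 ± 0.65 for miR-29b-3p (adjusted p = 0.507, with values of 0.12, 0.14 and 1.04 without 36-week replicates 1, 2 and 3) and 0.38 ± 0.85 for miR-29c-3p (adjusted p = 0.770). Over all tested miRNAs the median was 0.71, 62.1% were above 0, and 29.8% had an unadjusted p under 0.05, and 1 of the 3 members, miR-29a-3p, was among these. Under quantile normalization its difference was -0.35 and the median over all -0.33. In each of these 3 steps 0 members passed, against 0% of tested miRNAs.

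**Figure D3:**
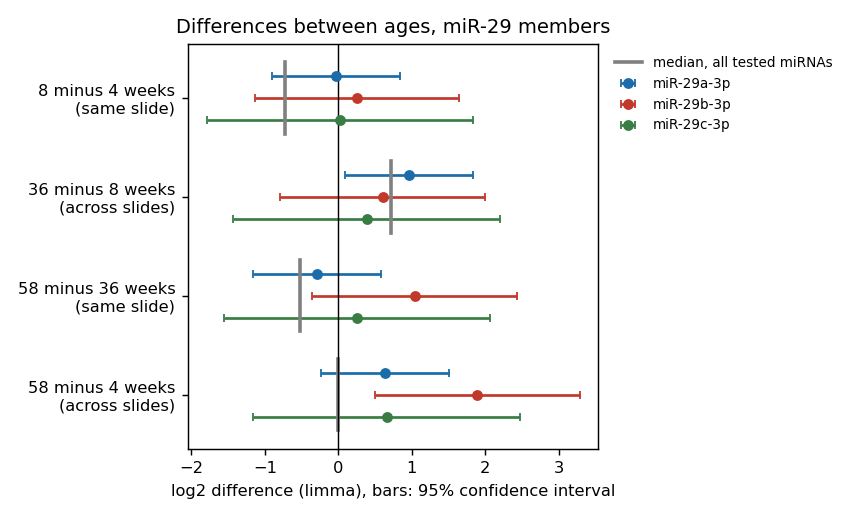
Log2 differences between ages (horizontal axis) of the 3 members in 4 comparisons (rows), as limma estimates with 95% confidence intervals, and the median of all 285 tested miRNAs as a grey bar. The interval of miR-29b-3p for 58 minus 4 weeks, 0.50 to 3.28, lies to the right of 0 before adjustment, and the grey bars at -0.72, 0.71 and -0.52 give the median estimate of all tested miRNAs between neighbouring ages.

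A scaling factor cancels in the difference between members within an array, except where a value is at the floor. They show unequal change and not which member is more abundant, since the probes differ. The log2 signal of miR-29b-3p minus that of miR-29a-3p was -4.06, -4.45, -4.36 and -3.96 in the 58-week mice, against -5.90, -4.91, -5.54 and -5.52 in the 4-week mice. The 2 ages did not overlap. Relative to miR-29a-3p, miR-29b-3p was thus 1.26 higher on the log2 scale at 58 weeks. The means were -4.21 ± 0.24 at 58 weeks and -5.47 ± 0.41 at 4 weeks (SD, n = 4 each). On 4-week replicate 1 miR-29b-3p was at the floor, so the -5.90 and the 1.26 depend on the scaling and the floor. The 2-sided exact permutation test gave p = 0.0286, the smallest that its 70 assignments can give, and an adjusted p = 0.171 over the 12 tests of this kind, so the difference did not pass. A single pair of ages cannot pass this test after adjustment.

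Against 8 weeks the same measure was 0.97 higher at 58 weeks, again with no overlap. The means were -4.21 ± 0.24 and -5.18 ± 0.36 (exact permutation p = 0.0286, adjusted p = 0.171). On 8-week replicate 3 miR-29b-3p was at the floor. Within slide 2 the same measure was 1.33 higher at 58 than at 36 weeks (exact permutation p = 0.114, adjusted p = 0.457). The 36-week mice were at -4.11, -4.58, -7.39 and -6.07, 2 near the 58-week mice and 2 below every other mouse. Within slide 1 it was 0.29 higher at 8 than at 4 weeks (exact permutation p = 0.343, adjusted p = 0.943). By the brightest probe of each member, at the same scaling and floor and chosen after the values were seen, the difference between 58 and 4 weeks was 1.04, again without overlap. Under quantile normalization, which is not a single factor per array, it was 0.10 (exact permutation p = 0.743). Without the 3 marked arrays it was 1.02 (exact permutation p = 0.0667, the smallest that the remaining arrays can give). It was -0.024 with normexp background correction, which adds an offset of 50 to every signal, where the highest processed signal of miR-29b-3p was 28.1.

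miR-29c-3p and miR-29a-3p, which differ by C10U, had nearly the same difference at both ends of the age range. Their log2 difference was -2.89 ± 0.38 at 58 weeks and -2.92 ± 0.24 at 4 weeks (SD, n = 4 each), a change of 0.03 (exact permutation p = 0.914, adjusted p = 0.943). The 8-week mean was -2.86 ± 0.18. The 36-week mice were at -2.55, -2.21, -2.92 and -6.07, the last being replicate 4, where miR-29c-3p was at the floor. Cross-hybridization between probes for such similar sequences was not tested.

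**Figure D4:**
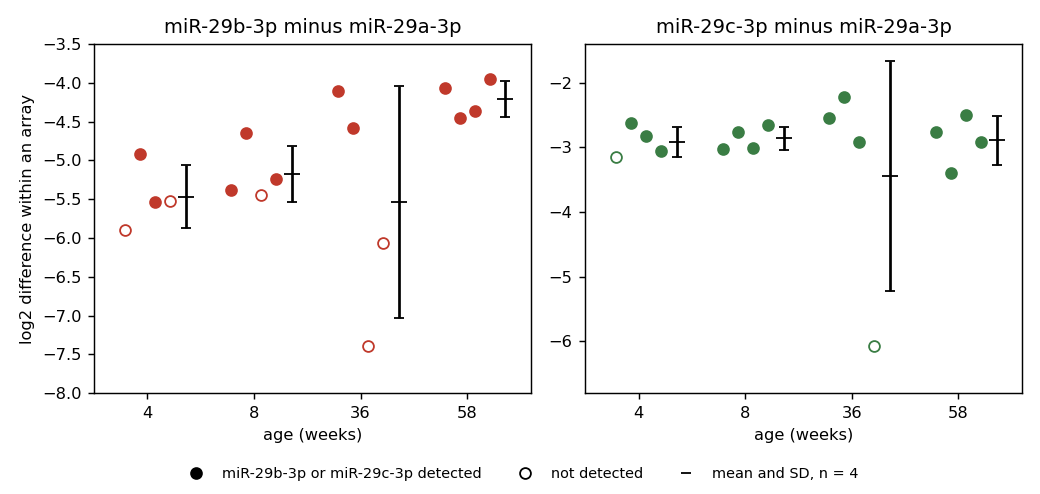
Log2 signal of miR-29b-3p (left) and miR-29c-3p (right) minus that of miR-29a-3p on the same array (vertical axes, different ranges), by age in weeks (horizontal axis), 1 point per mouse with the mean and SD of 4. Open points mark mice where the first miRNA was not detected; the 58-week mice sat between -4.45 and -3.96 on the left, above every 4- and 8-week mouse, while on the right the 58- and 4-week means were -2.89 and -2.92.

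Among the members, miR-29a-3p and miR-29c-3p had the highest correlation across arrays. Over the 16 arrays, Pearson's r of log2 signals was 0.703 for miR-29a-3p with miR-29c-3p, 0.583 for miR-29a-3p with miR-29b-3p and 0.619 for miR-29b-3p with miR-29c-3p. Without the 3 marked arrays these were 0.938, 0.485 and 0.540, in the same order. The arrays share a scaling and 2 slides, so these values describe likeness only.

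Outside the family, the 5 tested miRNAs most like each member over the 16 arrays were different ones, with miR-26a-5p the only name on 2 of the lists. For miR-29a-3p they were miR-30d-5p (r = 0.759), miR-26a-5p, miR-103-3p, miR-34a-5p and miR-222-3p (0.694), with r of 0.692 to 0.812 without the 3 marked arrays. For miR-29c-3p they were miR-26a-5p (0.871), miR-652-3p, miR-22-3p, miR-6368 and miR-107-3p (0.849). Without the 3 marked arrays r was 0.471 for miR-6368 and 0.695 to 0.875 for the other 4. For miR-29b-3p they were miR-146a-5p (0.874), miR-21a-5p (0.753), miR-130a-3p, miR-142a-3p and miR-375-3p (0.622), with r of 0.504 to 0.843 without those arrays. On 36-week replicate 3, where miR-29a-3p had its highest value of all and miR-29b-3p was at the floor, miR-146a-5p was at the floor too and miR-21a-5p was 7.24, against 9.47 and 9.24 on replicates 1 and 2.

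The summed scaled signals of leukocyte miRNAs and of platelet and endothelial miRNAs did not overlap between 58 and 4 weeks. Scaling raised 58-week values relative to 4-week ones, and sums without scaling were not compared. Among single tested miRNAs, 3.86% had all 58-week arrays above all 4-week arrays. No single miRNA of either list passed the test. Of 6 leukocyte miRNAs, 4 were detected on any array, while miR-142a-5p and miR-155-5p were detected on none. Their summed scaled signal was 329.7 to 410.4 in the 58-week mice and 131.0 to 316.8 in the 4-week mice. At 36 weeks it was 164.1 to 480.5, which overlapped both the 4-week and the 58-week range. Estimates of 58 minus 4 weeks were above 0 for 4 of the 4 tested, against 49.5% of all tested miRNAs, with a median log2 difference of 0.95, and 0 of 4 passed, against 0.351% (limma). The summed erythrocyte signal overlapped, at 4715 to 8227 at 58 weeks and 5444 to 8476 at 4 weeks, with 6 of 7 of its miRNAs detected and miR-144-5p on no array. The summed platelet and endothelial signal was 636.3 to 791.3 at 58 weeks and 425.6 to 609.3 at 4 weeks, with 4 of 5 detected and miR-126a-5p on no array. Its range was 240.6 to 678.8 at 8 weeks and 129.7 to 847.0 at 36 weeks, both overlapping the 58-week range. Of its 4 tested miRNAs 3 had estimates above 0 for 58 minus 4 weeks and 0 passed (limma), with miR-223-3p at 0.90, miR-126a-3p at 0.11, miR-24-3p at 0.05, miR-199a-3p at -2.42 and a median of 0.08. The part of these sources in the miR-29b-3p values was not tested.

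Among other miRNAs linked to fibrosis, 1 passed the test for the slope. Of 18 listed as lowering fibrosis, such as the miR-30 and miR-133 families, 11 were tested and 0 passed for the slope in either direction, against 0.351% of all tested miRNAs. In this list 9 slopes were above 0, against 57.9% over all, and the median was 0.09. The smallest p belonged to let-7d-5p (slope 0.28 ± 0.19 SE, limma adjusted p = 0.525). Of 9 listed as promoting fibrosis, 5 were tested. In that list 3 slopes were above 0 and 2 below, against 57.9% above 0 over all. miR-214-3p passed with a negative slope (-0.75 ± 0.12 SE, limma adjusted p = 0.00175). With a positive slope 0 passed, so 1 of 5 passed, against 0.351%. miR-214-3p was itself the 1 miRNA of 285 behind that share, and the lists were chosen with earlier results of these data known. The 1 of 5 therefore says nothing about the list as a whole. The slope spans both slides, and 0 miRNAs passed with slide as a block, with the deposited total signal, with outlier spots kept or under quantile normalization (limma). miR-214-3p lay at the floor in all 4 of the 58-week mice, so the size of its slope depends on the floor. The other members of the list did not pass. By smallest p, the next were miR-199a-3p (slope -0.56, limma adjusted p = 0.130), miR-34a-5p (0.36, adjusted p = 0.237) and miR-21a-5p, a miRNA induced in fibrosis (0.24, adjusted p = 0.525). The median slope of the list was 0.24, against 0.12 over all tested miRNAs.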

How the data were processed

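The authors deposited 1 scanner file per array, made with Agilent Feature Extraction 11.5 per the submitters' processing notes. Its intensity values are background-subtracted per the file headers, with no scaling between arrays recorded there. Outlier flags and detection calls are deposited too. Spots flagged as outliers (2.32% to 4.48% of miRNA spots per array) were dropped here, and means were taken over spots, then over the probes of a miRNA. Arrays were brought to an equal 75th percentile of the 24 miRNAs with detection everywhere. The floor, 3.79, was the median over arrays of the lowest positive scaled signal of a detected miRNA. Of 1881 miRNAs, 285 were tested.

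limma 3.58.1 (R 4.3.3) compared the ages on the log2 scale, with all 16 arrays in 1 fit and Benjamini-Hochberg adjustment over the 285 at a threshold of 0.05. The slope was fitted over log2 age. Differences within an array had 2-sided exact permutation tests. The code was tested on simulated data. The named miRNAs are the members, their opposite strands, the 5 most similar to each, and from each fibrosis list at most 4 with the smallest p of the slope. Members and lists were chosen with earlier results of these data known. Replicate numbers recur across ages but did not pair the samples. The alternatives covered scaling, background, floor, filters, probe choice, variance model, weights, blocks and leaving out arrays.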

Additional observations from a re-analysis of the deposited data

Results flagged for a closer look

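In 3 of 32 sets of 4 values, 1 mouse stood far from the other 3. Chance would give about 1.6 if the sets were independent. They are not, since members, differences between members and brightest probes were read on the same mice. On 36-week replicate 4, the array with the most background, miR-29c-3p was 1.92, the floor, against 6.19 to 6.92 in the other 36-week mice. By the brightest probe alone it was again at the floor (1.92), against 6.30 to 7.01. The brightest probe of miR-29b-3p was 4.30 on 4-week replicate 2, against 3.42 to 3.44 in the other 4-week mice. All values are log2 scaled signals, and the part of background in them was not tested.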

How the results depend on the processing

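The slope of miR-29b-3p was above 0 in 31 of 31 alternative settings, those added later not counted, with a range of 0.14 to 0.66. So was its difference between 58 and 4 weeks, with a range of 0.58 to 2.35. The count is not a test of the sign, since 16 of the settings only leave out 1 array each. Others, such as a changed detection filter, variance model or replicate block, cannot change the estimate. In the main analysis no member passed, and the following alternatives brought a call (limma, log2 units). Slopes of miR-29a-3p and miR-29b-3p passed with normexp (0.22 and 0.16, adjusted p = 0.0252 and 0.0485), by the brightest probe (0.22 and 0.33), with array weights (0.19 and 0.51), without the 3 marked arrays (0.22 and 0.44), and by the brightest probe without those arrays (0.25 and 0.44, chosen after seeing the data). The slope of miR-29c-3p passed with normexp (0.22). With array weights the 58 minus 4 week difference of miR-29b-3p passed (1.73), as did the 36 minus 8 week differences of miR-29a-3p (1.26), miR-29b-3p (1.60) and miR-29c-3p (1.77), and the 58 minus 36 week difference of miR-29c-3p, there with its sign turned (-1.22, adjusted p = 0.0161). Calls over all miRNAs for the slope numbered 196 of 285 with array weights, 17 with normexp, 8 by the brightest probe, 6 without scaling and 0 with slide as a block, against 1 in the main analysis. Without the 3 marked arrays they numbered 146 of 272, and 36 of 272 by the brightest probe. With array weights, calls numbered 177 of 285 for 58 minus 4 weeks, 180 of 285 for 36 minus 8 weeks and 43 of 285 for 58 minus 36 weeks. In the 58 minus 4 and 36 minus 8 week differences most tested miRNAs thus shared the members' calls.

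Signs turned as follows, and the cause was not tested. The slope of miR-29a-3p was -0.16 with slide as a block. With no scaling the slope of miR-29c-3p was -0.054, the 58 minus 4 week difference -0.40 for miR-29a-3p and -0.37 for miR-29c-3p, the 8 minus 4 week difference -0.0051 for miR-29b-3p and -0.46 for miR-29c-3p, and the 58 minus 36 week difference of miR-29c-3p -0.11. The 8 minus 4 week difference of miR-29a-3p was 0.30 scaled to miR-23a-3p, 0.49 under quantile normalization, 0.013 with normexp, 0.14 by the brightest probe, 0.30 without the marked arrays and 0.32 with both, and that of miR-29c-3p was -0.23 with array weights. For 36 minus 8 weeks quantile normalization gave -0.35 for miR-29a-3p and -0.13 for miR-29b-3p, and a quarter-size floor -0.12 for miR-29c-3p. For 58 minus 36 weeks quantile normalization gave 0.55 for miR-29a-3p. That difference of miR-29c-3p was -0.17 scaled to miR-23a-3p, -0.00015 with the deposited total signal, -0.024 under quantile normalization, -0.20 with normexp, -0.054 by the brightest probe, -1.22 with array weights, -0.61 without the marked arrays and -0.62 with both. Within an array, between 58 and 4 weeks, miR-29b-3p minus miR-29a-3p was -0.024 with normexp. The same for miR-29c-3p was -0.028 by the brightest probe, also at the main scaling and floor, -0.16 without the marked arrays and -0.21 with both.

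With 1 array left out, slopes ran from 0.21 to 0.26 for miR-29a-3p, 0.39 to 0.50 for miR-29b-3p and 0.12 to 0.25 for miR-29c-3p, and none passed. The 58 minus 4 week difference of miR-29b-3p ran from 1.73 to 2.19. The 8 minus 4 week difference ran from -0.25 to 0.35 for miR-29a-3p and from -0.26 to 0.40 for miR-29c-3p. For miR-29b-3p the range was 0.12 to 1.04 for 36 minus 8 weeks and 0.61 to 1.54 for 58 minus 36 weeks. The difference of miR-29c-3p for 36 minus 8 weeks ran from -0.16 to 1.02 and for 58 minus 36 weeks from -0.68 to 0.80. Within an array, miR-29b-3p minus miR-29a-3p ran from 1.12 to 1.42, and the same for miR-29c-3p from -0.10 to 0.19.

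The replicate numbers did not pair the samples: same-numbered arrays of different ages had correlations of -0.90 to 0.81 in their deviations, and 2 of 16 arrays correlated best with their own number. With the replicate block the slope was 0.23 for miR-29a-3p and 0.43 for miR-29b-3p (limma adjusted p = 0.560 and 0.375), and no member gained a call. Scaling to the 75th percentile over all mouse miRNAs was not run, because that percentile was below 0 on 1 array. The number of arrays and the low signal of miR-29b-3p over background limit the precision.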

Other observations

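The opposite strands of the same precursors gave little signal in serum. Of these 4, miR-29a-5p, miR-29b-1-5p and miR-29b-2-5p were detected on no array and lay at the floor on all 16. miR-29c-5p was detected on 4-week replicate 1 alone, with a processed signal of 97.4. It also read 206.1 without a detection call on 36-week replicate 4, and 0.99 to 20.9 on the other 14 arrays. Both high readings fell on the 2 arrays with the most background.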
